A study of Homo sapiens with 9 samples.

Results

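The aldehyde and conjugation enzymes were followed in MDA-MB-231 cells, an established human triple-negative breast cancer line, after knockdown of AHR. Members were chosen by gene symbol alone: aldehyde dehydrogenases (ALDH), aldo-keto reductases (AKR), cytosolic and mitochondrial glutathione transferases (GST), UDP-glycosyltransferases (UGT) and sulfotransferases (SULT), without pseudogenes and without symbols that hold a hyphen. This gave 85 of the 60649 genes listed, namely 19 ALDH, 13 AKR, 18 GST, 22 UGT and 13 SULT genes. RNA sequencing covered 9 libraries of cells in 3 groups of 3 replicates: cells with the control vector pLKO-GFP, cells with the hairpin construct shAHR#2 and cells with the hairpin construct shAHR#3. All 3 groups were the same line in the same serum-supplemented medium, with no ligand or drug named in the labels, and cells without any vector were not included. The labels do not say whether replicates were separate cultures, so p-values measure the spread between these libraries, which may be technical. Both constructs were compared with the same 3 control libraries.

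These families share the work of removing reactive and foreign compounds. ALDH enzymes oxidize aldehydes to acids with NAD+ or NADP+, and AKR enzymes reduce aldehydes and ketones to alcohols with NADPH. GST enzymes join electrophiles to glutathione, UGT enzymes attach a sugar and SULT enzymes attach sulfate, which makes the products easier to export. The AHR protein, a ligand-activated transcription factor, binds with ARNT to the xenobiotic response element (XRE) and is known for inducing a set of such genes, among them ALDH3A1 and NQO1 in liver cells. NRF2 (the product of NFE2L2) acts through the antioxidant response element (ARE), and AKR1C and AKR1B10 genes are textbook NRF2 targets.

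Total counts per library were between 15991396 and 20374460, and the members together took between 0.115% and 0.134% of them. AHR itself was at 114, 118 and 121 CPM (counts relative to library size, scaled by TMM factors) in the pLKO-GFP libraries, at 42.5, 40.4 and 41.9 CPM with shAHR#2 and at 46.3, 52.1 and 44.5 CPM with shAHR#3, so no knockdown library reached the control range. The log2 fold change of AHR was -1.50 (SE 0.05, adjusted p = 1.05e-25) with shAHR#2 and -1.31 (SE 0.05, adjusted p = 4.95e-24) with shAHR#3; adjusted p-values throughout come from the quasi-likelihood test of edgeR, adjusted by the Benjamini-Hochberg method over 14274 tested genes, and a gene is called where it is under 0.05. AHR was slightly higher with shAHR#3 than with shAHR#2 (log2 difference 0.19, adjusted p = 0.00283), a call that was lost without shAHR#3 replicate 2 (0.13, adjusted p = 0.0626). The 6 genes taken as markers of this line (VIM, CD44, KRT18, KRT8, EGFR and AXL) summed to 5669 to 6849 CPM in every library, and of 5 genes taken as absent or low in this line PGR had no count and ESR1 at most 4. GATA3 and EPCAM were detected, at 10.5, 10.2 and 9.94 CPM and at 6.62, 6.06 and 6.11 CPM on average in the 3 groups, and were called in no comparison. CDH1 was at 0.909 CPM in control libraries on average, 1.80 for shAHR#2 and 4.16 for shAHR#3.

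Genes of other cell types were low but not all steady. Of the leukocyte genes, CD3E was at 0 in every library, PTPRC was at 0.119 CPM in the control against 1.38 and 1.00 with the constructs, and CD14 was at 0.957 CPM against 0.356 and 0.639. The 3 hepatocyte genes summed to 0.0976 to 0.456 CPM, with CYP3A4 at 0 in every library. The 3 endothelial genes summed to 2.15 to 2.71 CPM with pLKO-GFP and to 10.4 to 13.3 CPM with either construct; PECAM1 gave nearly all of this, and VWF and CDH5 had no count in the control and at most 12 counts in any other library. The 5 fibroblast genes summed to 14.4 to 17.9 CPM with pLKO-GFP or shAHR#2 and to 29.4 to 32.5 CPM with shAHR#3, with DCN at no more than 1 count. Their members went different ways: PDGFRB was at 8.20, 4.62 and 18.3 CPM on average in the 3 groups, COL1A1 at 6.31, 10.0 and 11.3, COL1A2 at 1.76, 0.420 and 0.305, and LUM at 0.408, 0.230 and 1.13. The part of these changes in the results below was not tested, and in bulk RNA fewer cells of a type and less RNA per cell cannot be told apart.

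Several results turn on AKR1C1, AKR1C2 and AKR1C3, neighbours of related sequence on chromosome 10, so their sequences are shown first. The coding sequences of their MANE Select transcripts (GENCODE release 44, GRCh38) were each 972 bases long. AKR1C1 and AKR1C2 were identical at 98.0% of aligned bases, AKR1C1 and AKR1C3 at 91.5%, and AKR1C2 and AKR1C3 at 91.0%. The first 75 coding bases follow for each gene, with the bases that differ from AKR1C1 in capitals; they lie in exon 1, at chr10:4963445-4963519 on the plus strand for AKR1C1, chr10:5003761-5003835 on the minus strand for AKR1C2 and chr10:5094445-5094519 on the plus strand for AKR1C3.
AKR1C1: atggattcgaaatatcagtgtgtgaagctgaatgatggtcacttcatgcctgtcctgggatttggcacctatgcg
AKR1C2: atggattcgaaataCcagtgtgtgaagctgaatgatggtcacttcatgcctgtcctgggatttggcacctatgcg
AKR1C3: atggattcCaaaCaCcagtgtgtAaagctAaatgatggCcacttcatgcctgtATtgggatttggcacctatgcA
In this stretch AKR1C2 differed from AKR1C1 at 1 base and AKR1C3 at 9. Over all annotated transcripts, 26.0% of the 75-base stretches of AKR1C2 also occur in AKR1C1 and 18.3% of those of AKR1C1 in AKR1C2, whereas 3.3% of those of AKR1C3 occur in any other gene. The read length is not given in the sources used here, and reads from the shared stretches cannot be assigned, so the counts of AKR1C1 and AKR1C2 are uncertain to that extent.

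The same 3 genes shared a run of 12 bases just upstream of their annotated starts, found in all 4 of their promoter entries (RefSeq, GRCh38.p14) when the 150 bases before each start were compared. The run is in capitals below, within 30 bases at chr10:4963329-4963358 (AKR1C1, plus strand), chr10:5003918-5003947 (AKR1C2, minus strand), chr10:5048699-5048728 (AKR1C3, first start, plus strand) and chr10:5094319-5094348 (AKR1C3, other start, plus strand).
AKR1C1: tcacatgccATTGGTTAACCAgcagacagt
AKR1C2: tcacatgccATTGGTTAACCAgcagacagt
AKR1C3, first start: ttacatgctATTGGTTAACCAttaggcagt
AKR1C3, other start: ctacatgccATTGGTTAACCAtcagtcagt
The run lay 77 to 66 bases before the start of AKR1C1 and 81 to 70 bases before that of AKR1C2. On either strand it occurred in 5 of 35116 promoters of 300 bases (0.0142%). These were the 4 entries from which the run was taken, which hold it by definition, and that of PPFIA2. Over the 150 bases before the start AKR1C1 and AKR1C2 were 94.2% identical, and each differed more from AKR1C3 (67.7% to 72.1%).

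Promoters of 300 bases (250 before to 50 after the start) were found for 68 of the 85 members, with 82 entries; ALDH3A1 had no entry. The XRE core GCGTG, searched on both strands, was in 31.7% of the members' promoters and in 36.5% of all promoters, and the ARE core TGACNNNGC was in 14.6% against 13.3%; a match to one can overlap a match to the other. Among members that rose with both constructs, SULT1C2 (chr2:108288823-108288851, plus strand) and GSTA4 (chr6:52995275-52995303, minus strand) held the ARE letters, in capitals in these stretches, 62 to 54 bases before the start of SULT1C2 on the opposite strand and 9 bases to 1 base before that of GSTA4.
SULT1C2: ccctcccaggGCCAGGTCAcagggtttgt
GSTA4: ccgggaccgcTGACCTGGCgctttgtgcg
ALDH3A2 held XRE letters 76 to 72 bases before its start and at bases 43 to 47 of its transcript. GSTZ1 held them 194 to 190 and 47 to 43 bases before its start. Of the 6 genes higher with both constructs that had an entry, 2 held each motif (33.3%), beside 40.6% of all genes for the XRE and 16.1% for the ARE. Of the 9 genes lower with both constructs, 2 also held each motif (22.2%). These were GSTM1 and GSTO1 for the ARE letters, and AKR1B1 and GSTM3 for the XRE letters. A match is a description of letters, not of binding.

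Most members were silent or nearly so in this line. In 40 of 85 no read was counted in any library, among them 20 of 22 UGT genes, 9 of 13 SULT genes and 7 of 18 GST genes, including GSTA1, GSTA2 and GSTM5. For a gene at 0 in all libraries the limit is 3 counts in a library, which covers counting error only. Another 3 members (AKR7L, SULT1A1 and UGT2B7) had at most 3 counts. Another 7 had more than 3 counts in some library but too few to be tested: AKR7A3 (0 to 9 counts), ALDH1A1 (0 to 4), ALDH1A2 (0 to 5), ALDH1L1, ALDH8A1 (0 to 4), GSTO2 (5 to 16) and SULT2B1 (0 to 5). The 35 members that were tested comprised 14 ALDH, 8 AKR, 10 GST, 2 SULT and 1 UGT genes. Of these, AKR1C2 and AKR1B10 passed the low-count filter only through the shAHR#3 libraries, and SULT1B1 only through the knockdown libraries, so their calls in those groups are given as a description. SULT1A3 and SULT1A4, GSTT2 and the UGT1A genes share much of their sequence with copies, so a count of 0 there can also come from reads that were not assigned to any copy.

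Per kilobase of transcript, GSTO1, an omega-class transferase and reductase, was the highest member in the control at 139 ± 7.03 CPM per kb (mean ± SD, n = 3 here and below). GSTP1, the main transferase of many carcinomas, followed at 128 ± 5.88 and AKR1B1, aldose reductase, at 110 ± 5.13; the library values of GSTO1 and GSTP1 overlapped, and those of AKR1B1 lay below both. ALDH9A1 (43.0 ± 2.15) and GSTK1 (42.9 ± 4.09) did not differ beyond their spread and were followed by ALDH18A1 at 33.0 ± 1.05 and ALDH3A2 at 30.6 ± 1.01. ALDH1A3, which makes retinoic acid, was at 3.50 ± 0.445 CPM per kb, ALDH3A1 at 2.13 ± 0.154, AKR1C1 at 0.471 ± 0.0626 and SULT1C2 at 0.437 ± 0.0394. With shAHR#2 the level of ALDH3A1 was 17.2 ± 0.344 CPM per kb and with shAHR#3 11.4 ± 0.713, above ALDH1A3 in both.

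**Figure D1:**
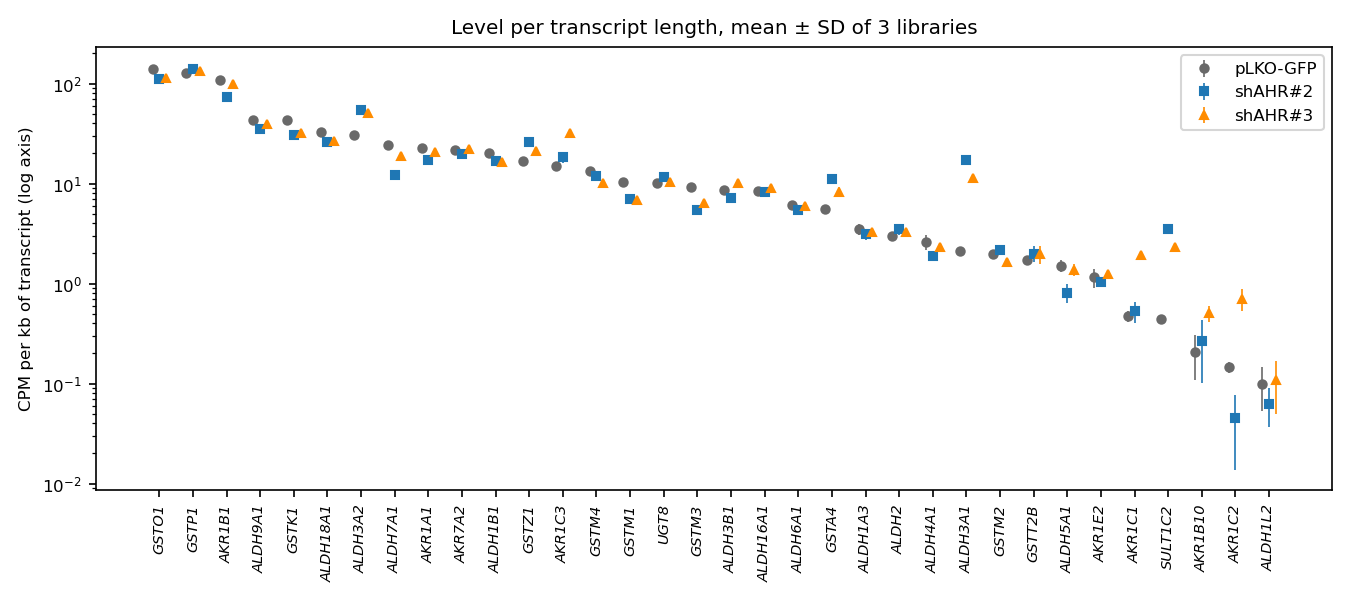
Level of 34 tested members in CPM per kilobase of transcript on a log axis, ordered by the pLKO-GFP mean; points are means and bars SDs of 3 libraries (SULT1B1, with control counts of 0, 1 and 0, is left out). GSTO1, GSTP1 and AKR1B1 lead in all 3 groups, while ALDH3A1, SULT1C2, AKR1C1 and AKR1C2 stand apart between groups.

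With shAHR#2, 25 of the 35 tested members were called against pLKO-GFP, beside 65.8% of all tested genes; 10 were higher (32.6% of all genes) and 15 lower (33.2%). At 2-fold or more, 4 members were called higher and 1 lower, where 11.8% of all genes passed that size in either direction. With shAHR#3, 21 were called (54.4% of all genes), 11 higher (26.9%) and 10 lower (27.5%), and 7 were at least 2-fold higher and none lower, beside 6.73% of all genes in either direction. Between the constructs 17 members were called (42.3% of all genes), 10 higher (21.9%) and 7 lower (20.4%) with shAHR#3, and 2 differed by at least 2-fold (3.71%). The median log2 fold change of the tested members was -0.15 with shAHR#2 and 0.06 with shAHR#3, while that of all tested genes was -0.003 and -6.88e-05. The share of members called was thus near that of all genes in each comparison. Without AKR1C2, AKR1B10 and SULT1B1, the 2-fold counts were 3 higher and 0 lower with shAHR#2, 4 higher with shAHR#3 and 1 between the constructs, of 32 members. Against the control, 7 members were called higher and 9 lower with both constructs, 2 were called in opposite directions and 7 in neither. The share of all tested genes called with both constructs was not computed, and both were compared with the same control libraries. These joint counts are therefore given as a description only.

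**Figure D2:**
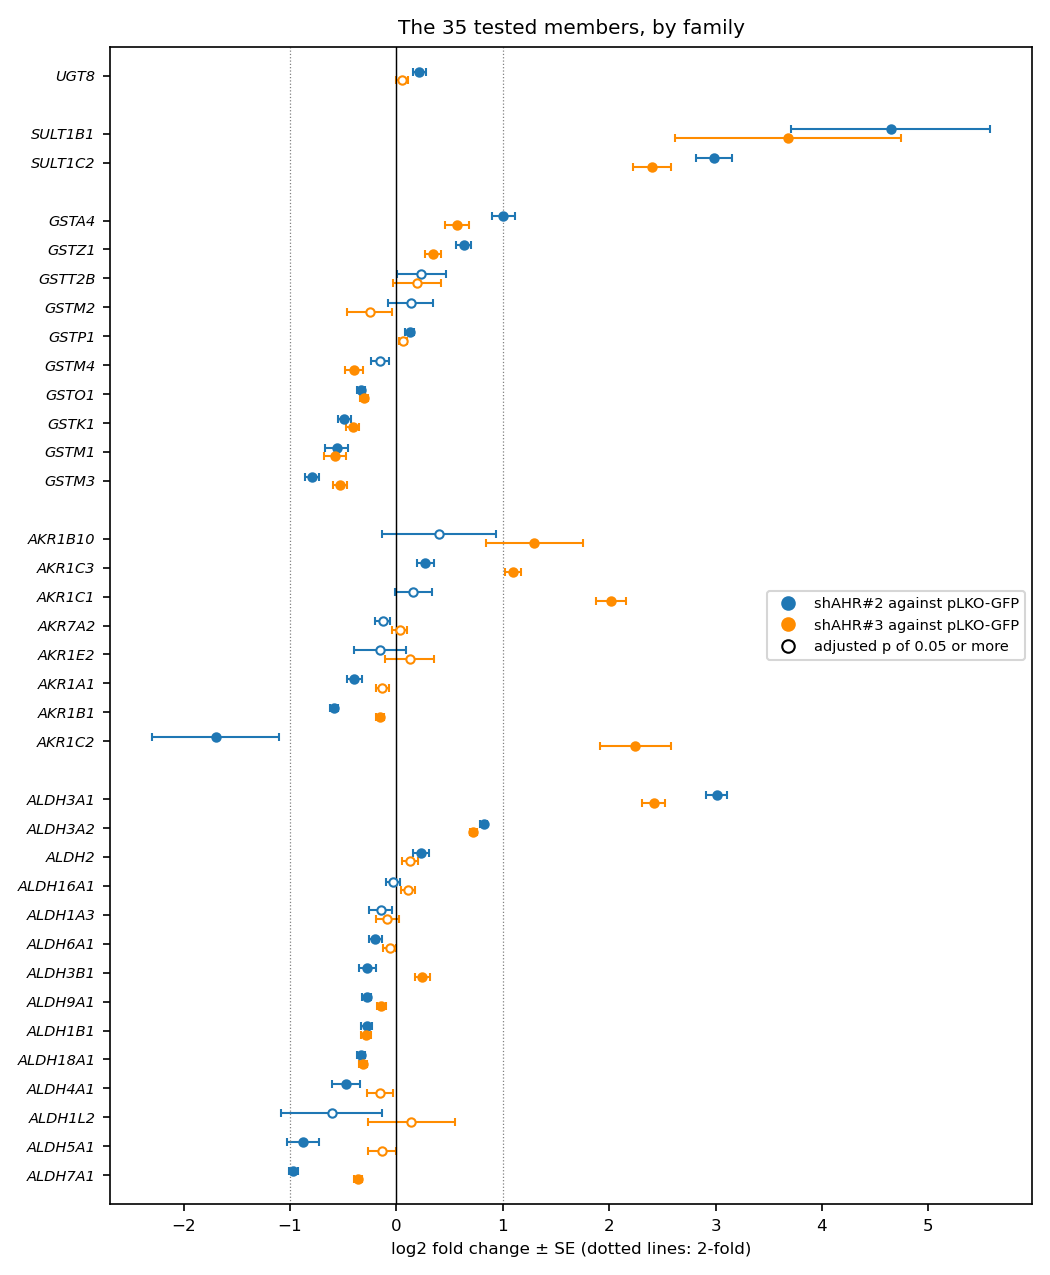
Log2 fold change ± SE of the 35 tested members against pLKO-GFP, by family, for shAHR#2 (blue) and shAHR#3 (orange); filled points have an adjusted p under 0.05 and dotted lines mark 2-fold. SULT1B1, SULT1C2 and ALDH3A1 lie beyond 2-fold with both constructs, and AKR1C2 lies on opposite sides of 0.

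Among the aldehyde dehydrogenases, ALDH3A1 and ALDH3A2 rose with both constructs and most other tested members fell or did not pass the test. With shAHR#2, 3 of 14 were higher and 8 lower (32.6% and 33.2% of all genes). With shAHR#3, 3 were higher and 4 lower (26.9% and 27.5% of all genes). ALDH3A1 (ENSG00000108602.18; chromosome 17, 19737984 to 19748943, minus strand) oxidizes aromatic and medium-chain aldehydes and is abundant in cornea. It was at 3.50, 3.75 and 3.24 CPM in the control libraries, 28.3, 28.8 and 27.6 in shAHR#2 cells and 17.5, 18.8 and 19.8 in shAHR#3 cells. The 3 groups did not overlap, and the shAHR#2 libraries were the highest. The rise was 8.06-fold with shAHR#2 (log2 3.01, SE 0.10, adjusted p = 3.17e-25) and 5.34-fold with shAHR#3 (log2 2.42, SE 0.10, adjusted p = 3.02e-21). The direct comparison of shAHR#3 with shAHR#2 gave a log2 difference of -0.59 (SE 0.07, adjusted p = 2.06e-08). ALDH3A1 went from 0.539% of all ALDH counts in control cells to 4.41% in shAHR#2 cells and 2.77% in shAHR#3 cells. None of its 75-base stretches occurs in another gene.

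ALDH3A2, fatty aldehyde dehydrogenase, the enzyme lost in Sjögren-Larsson syndrome, lies beside ALDH3A1 on chromosome 17 (19648136 to 19685760, plus strand), with lowest coordinates 89.8 kb apart. It was already among the leading ALDH genes, at 115, 116 and 109 CPM in the control, 198, 204 and 200 CPM in shAHR#2 cells and 187, 191 and 182 CPM in shAHR#3 cells. Every knockdown library exceeded every control library, and the rise was 1.77-fold (log2 0.82, SE 0.03, adjusted p = 1.00e-22) and 1.65-fold (log2 0.72, SE 0.03, adjusted p = 1.26e-20). The small difference between the constructs (log2 -0.10, adjusted p = 0.00869) was lost without shAHR#2 replicate 2 (-0.09, adjusted p = 0.0603). ALDH2, the mitochondrial acetaldehyde enzyme, was the third ALDH gene called higher with shAHR#2 (log2 0.23) and did not pass with shAHR#3 (0.13, adjusted p = 0.128) or between the constructs (adjusted p = 0.258).

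ALDH1A3, the retinaldehyde dehydrogenase often linked to ALDH activity in breast cancer cells, was at 12.1, 10.6 and 13.7 CPM with pLKO-GFP, 12.3, 9.57 and 10.8 in shAHR#2 cells and 10.3, 11.6 and 12.5 in shAHR#3 cells. The groups overlapped, and its log2 fold changes of -0.15 (SE 0.11, adjusted p = 0.243) and -0.08 (SE 0.10, adjusted p = 0.524) did not pass the test. An antisense gene, ALDH1A3-AS1, covers part of its exons, where 32.1% of exon bases overlap a gene on the opposite strand; whether strand was used in counting is not given in the sources used here.

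ALDH18A1, which makes the precursor of proline, was at 112, 113 and 106 CPM with pLKO-GFP, 86.1, 87.2 and 90.0 in shAHR#2 cells and 86.8, 89.2 and 91.4 in shAHR#3 cells. Both knockdown groups lay below the control (log2 -0.33 and -0.31, adjusted p = 9.07e-10 and 4.89e-09) and overlapped each other. ALDH9A1, an enzyme of carnitine synthesis, fell by 0.28 and 0.14 in log2 terms (adjusted p = 6.54e-07 and 0.00474); the latter call was lost without pLKO-GFP replicate 2 (-0.11, adjusted p = 0.0560). ALDH7A1, an enzyme of lysine breakdown singled out after its values were seen, had the largest fall of the ALDH genes called with both constructs. It was at 117, 115 and 112 CPM in the control, 58.8, 57.3 and 59.6 in shAHR#2 cells and 90.5, 89.6 and 87.3 in shAHR#3 cells, a log2 change of -0.97 (adjusted p = 1.59e-22) and -0.36 (adjusted p = 7.41e-11). Its chromosome as a whole was lower: the 656 tested genes of chromosome 5 had a median log2 fold change of -0.48 with shAHR#2 and -0.26 with shAHR#3, and the part of this in the ALDH7A1 result was not tested. On chromosome 10, which holds ALDH18A1, GSTO1 and the AKR1C genes, the median over 573 genes was -0.32 with shAHR#2 and -0.15 with shAHR#3.

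ALDH3B1, which acts on lipid aldehydes, moved in opposite directions by small amounts. It was at 23.0, 26.1 and 23.5 CPM in the control, 21.2, 19.8 and 19.0 CPM in shAHR#2 cells and 28.5, 26.6 and 30.9 CPM in shAHR#3 cells, and no groups overlapped. The log2 fold change was -0.27 (SE 0.08, adjusted p = 0.00219) with shAHR#2 and 0.24 (SE 0.07, adjusted p = 0.00384) with shAHR#3, a difference of 0.52 (adjusted p = 4.11e-07). ALDH4A1, ALDH5A1 and ALDH6A1, mitochondrial enzymes of proline, GABA and valine breakdown, were called lower with shAHR#2 and not with shAHR#3 (log2 -0.47, -0.88 and -0.20 against -0.15, -0.14 and -0.06). In the direct comparison ALDH5A1 differed between the constructs (adjusted p = 0.000137), and ALDH4A1 and ALDH6A1 did not pass (adjusted p = 0.0503 and 0.0852). The mitochondrial ALDH1B1 was called lower with both (-0.28 with each), and ALDH16A1 and ALDH1L2 with neither.

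ALDH1L1, a cytosolic folate enzyme, was too low to be tested but lost its few reads. It had 8, 18 and 17 counts in the control libraries, 0, 0 and 0 in shAHR#2 cells and 0, 0 and 3 in shAHR#3 cells. Scaled to library size, its level was at least 9.72-fold lower with shAHR#2, the lower end of the 95% counting interval over the group. The ratio of control to shAHR#3 was 14.8 (95% counting interval 4.75 to 74.7). These intervals cover counting error only.

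**Figure D3:**
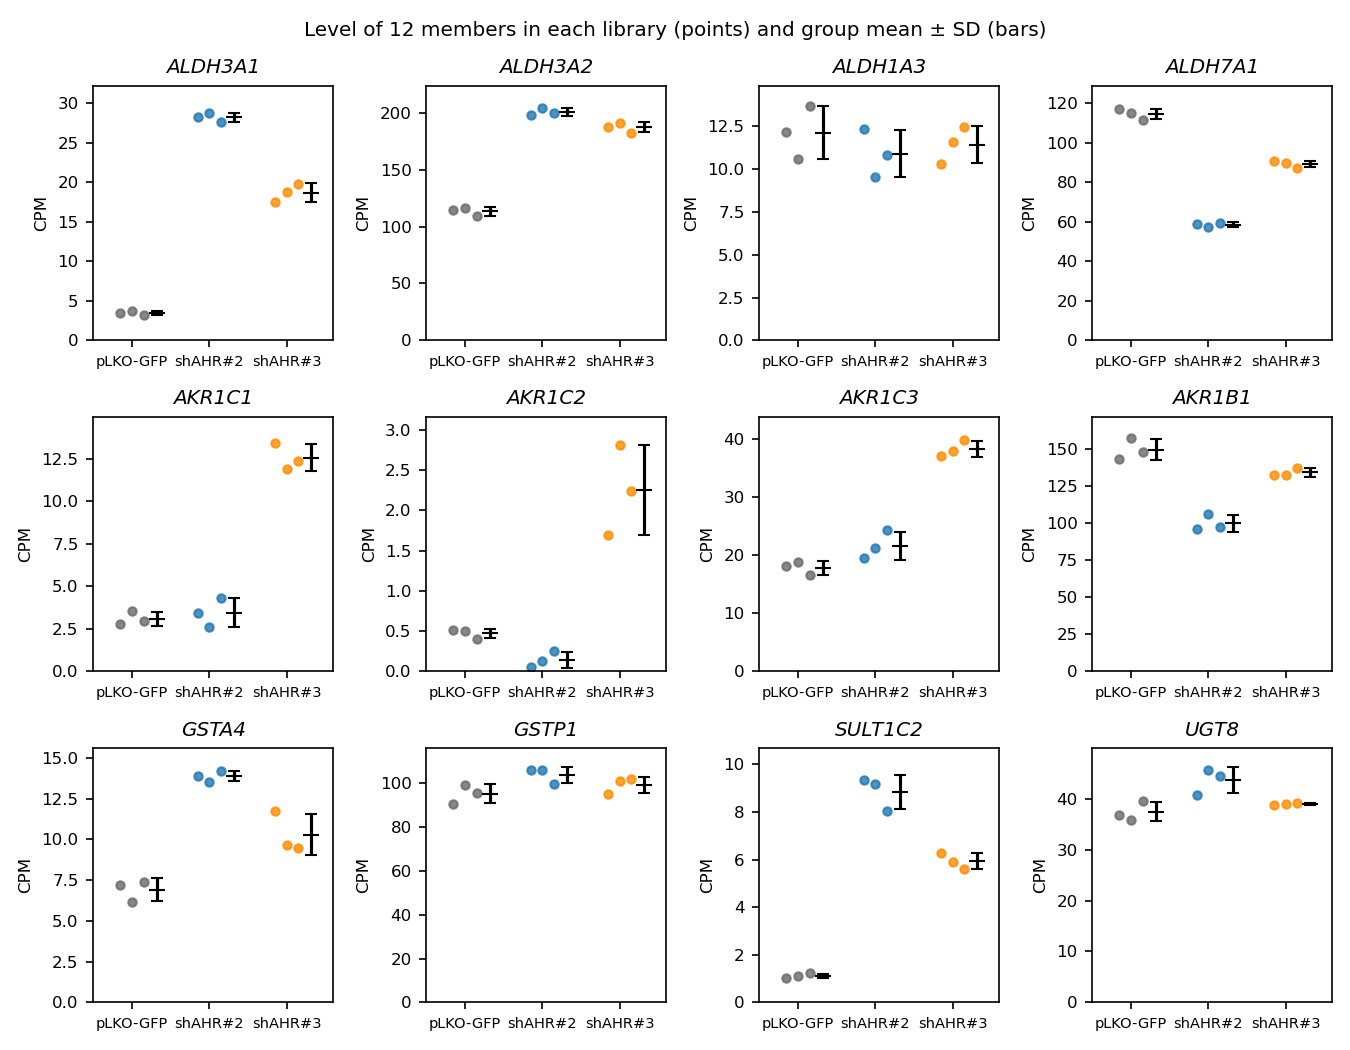
CPM of 12 members in each of 9 libraries (points), with the mean and SD of each group of 3 (bars); axes start at 0. ALDH3A1, ALDH3A2 and SULT1C2 are higher in all knockdown libraries, AKR1C1 is higher in the shAHR#3 libraries and not in the shAHR#2 libraries, and ALDH1A3 overlaps between all groups.

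Among the aldo-keto reductases, the 3 AKR1C genes and AKR1B1 and AKR1A1 differed between the constructs. With shAHR#2, 1 of 8 tested members was higher and 3 were lower (32.6% and 33.2% of all genes). With shAHR#3, 4 were higher, each by at least 2-fold, and 1 was lower (26.9% and 27.5% of all genes higher and lower at any size). In the direct comparison 5 of 8 were higher with shAHR#3 (21.9% of all genes) and none lower (20.4%). AKR1B10, AKR1E2 and AKR7A2 were not called there. The 4 higher with shAHR#3 include AKR1C2 and AKR1B10, which were tested only because of their shAHR#3 reads. AKR1C1 (ENSG00000187134.14; chromosome 10, 4963253 to 4983283, plus strand), which inactivates progesterone, was at 2.77, 3.55 and 2.94 CPM in the control, 3.43, 2.63 and 4.30 CPM in shAHR#2 cells and 13.4, 11.9 and 12.4 CPM in shAHR#3 cells. The shAHR#2 libraries overlapped the control and the shAHR#3 libraries stood above both. Its log2 fold change was 0.16 (SE 0.18, adjusted p = 0.436) with shAHR#2 and 2.02 (SE 0.14, adjusted p = 2.22e-15) with shAHR#3, and the constructs differed by 1.86 (SE 0.14, adjusted p = 4.86e-14).

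AKR1C2 (ENSG00000151632.17; 4987775 to 5018031, minus strand), which inactivates dihydrotestosterone, was called in opposite directions from few reads. Its counts were 9, 10 and 8 with pLKO-GFP, 1, 2 and 4 in shAHR#2 cells and 33, 55 and 46 in shAHR#3 cells, with no overlap between groups. The log2 fold change was -1.70 (SE 0.60, adjusted p = 0.0126) with shAHR#2 and 2.25 (SE 0.33, adjusted p = 3.74e-07) with shAHR#3. Without shAHR#2 replicate 1 the fall with shAHR#2 was no longer called (-1.26, adjusted p = 0.0881), and without shAHR#2 replicate 3 it was -2.33. The difference between the constructs was 3.94 (SE 0.44, adjusted p = 1.69e-09), or 4.58 without shAHR#2 replicate 3.

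AKR1C3 (ENSG00000196139.14; 5035354 to 5107686, plus strand), which makes testosterone and prostaglandin F, was the most abundant gene of the cluster, at 18.1, 18.9 and 16.6 CPM in the control, 19.5, 21.2 and 24.3 in shAHR#2 cells and 37.0, 38.0 and 39.8 in shAHR#3 cells. The shAHR#3 libraries were the highest and the shAHR#2 libraries lay just above the control. Its log2 fold change was 0.27 (SE 0.08, adjusted p = 0.00345), lost without shAHR#2 replicate 3 (0.19, adjusted p = 0.0573), and 1.10 (SE 0.07, adjusted p = 1.37e-15). With the reads of AKR1C1 to AKR1C4 summed, the log2 fold change was 0.23 (SE 0.08, adjusted p = 0.00750) with shAHR#2 and 1.31 (SE 0.07, adjusted p = 7.51e-19) with shAHR#3, and the constructs differed by 1.08. Of the fibroblast list, PDGFRB and LUM were also higher in the shAHR#3 libraries, as given above, whereas COL1A1 rose and COL1A2 fell with both constructs. DCN had no more than 1 count. The part of these genes in the AKR1C result was not tested.

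AKR1B10, a retinal reductase, had 8, 8 and 3 counts in the control, 10, 2 and 10 in shAHR#2 cells and 13, 16 and 20 in shAHR#3 cells, so that the shAHR#3 libraries were above the others. Its log2 fold change with shAHR#3 was 1.30 (SE 0.46, adjusted p = 0.0156); this was lost without pLKO-GFP replicate 3 (0.94, adjusted p = 0.114) and without shAHR#3 replicate 3 (1.15, adjusted p = 0.0683). AKR1B1, aldose reductase, took 63.8% of AKR counts in the control. It was at 143, 157 and 147 CPM, then 95.6, 106 and 97.0 in shAHR#2 cells and 132, 132 and 137 in shAHR#3 cells, a log2 change of -0.59 (SE 0.04, adjusted p = 5.97e-16) and -0.16 (SE 0.04, adjusted p = 0.000474). AKR1A1, aldehyde reductase, fell by 0.39 on the log2 scale with shAHR#2 (adjusted p = 3.58e-06); with shAHR#3 its change was -0.13 (adjusted p = 0.0835), which passed without shAHR#3 replicate 3 (-0.17, adjusted p = 0.0397). AKR7A2, an aflatoxin aldehyde reductase, was at 26.1 to 31.5 CPM in the control and was called in no comparison, although it was called with shAHR#2 without pLKO-GFP replicate 1 (-0.20, adjusted p = 0.0151) and between the constructs without pLKO-GFP replicate 1 (0.16, adjusted p = 0.0481) or shAHR#2 replicate 2 (0.20, adjusted p = 0.0378). As a description without a test, the AKR genes summed to 234 ± 9.80 CPM in control libraries, 178 ± 7.69 in those of shAHR#2 and 249 ± 5.04 in those of shAHR#3.

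Of the glutathione transferases, 3 of 10 tested members were higher and 4 lower with shAHR#2 (32.6% and 33.2% of all genes). With shAHR#3, 2 were higher and 5 lower (26.9% and 27.5% of all genes). GSTA4 (ENSG00000170899.11; chromosome 6, 52977948 to 52995304, minus strand), which conjugates hydroxynonenal from lipid peroxidation, was at 7.23, 6.14 and 7.39 CPM in the control, 13.9, 13.5 and 14.2 in shAHR#2 cells and 11.7, 9.67 and 9.47 in shAHR#3 cells. All knockdown libraries were above the control, those of shAHR#2 highest: log2 1.00 (SE 0.11, adjusted p = 2.55e-10) and 0.57 (SE 0.11, adjusted p = 3.54e-05), a difference of -0.43 (adjusted p = 0.000586). GSTZ1, an enzyme of tyrosine breakdown singled out after its values were seen, also rose (log2 0.63 and 0.35).

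GSTO1, at 107, 119 and 112 CPM in the control, was at 89.5, 89.6 and 90.8 with shAHR#2 and at 91.4, 92.1 and 90.6 with shAHR#3 (log2 -0.33 and -0.31, adjusted p = 1.46e-09 and 7.55e-09). GSTK1, the mitochondrial and peroxisomal transferase, went from 41.3, 42.4 and 49.1 CPM to 31.5, 32.9 and 30.4 and to 34.3, 33.0 and 32.9 (log2 -0.49 and -0.41, adjusted p = 1.52e-08 and 4.42e-07). For both genes the 2 constructs did not pass the test against each other (log2 differences 0.02, SE 0.04, and 0.08, SE 0.07). GSTP1 was nearly level, at 90.6, 99.3 and 95.4 CPM, then 106, 106 and 99.5, then 95.0, 101 and 102. Its rise of 0.13 (adjusted p = 0.00621) with shAHR#2 was lost without pLKO-GFP replicate 1 (0.09, adjusted p = 0.0614), and with shAHR#3 the change was 0.06 (adjusted p = 0.193); the constructs did not pass against each other (adjusted p = 0.200).

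In the mu-class cluster on chromosome 1 no member was called higher with either construct. GSTM3, singled out after its values were seen, fell by 0.80 and 0.53 in log2 terms (adjusted p = 3.24e-13 and 3.76e-09) and GSTM1 fell by 0.56 and 0.57 (adjusted p = 2.16e-05 and 1.40e-05). GSTM4 was called lower with shAHR#3 (-0.40), not with shAHR#2 (-0.15), with a direct difference of -0.24 (adjusted p = 0.0262), and GSTM2 with neither. Of the 75-base stretches of GSTM1, 36.5% occur in other genes, mostly GSTM2. With the GSTM reads summed, the log2 fold change was -0.53 (SE 0.05, adjusted p = 1.20e-11) with shAHR#2 and -0.49 (SE 0.05, adjusted p = 6.01e-11) with shAHR#3.

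Of the 2 tested sulfotransferases, SULT1C2 rose from a low level and SULT1B1 was barely counted in the control. SULT1C2 (ENSG00000198203.10; chromosome 2, 108288639 to 108309915, plus strand), which sulfates phenols, was at 1.02, 1.10 and 1.22 CPM in the control, 9.33, 9.18 and 8.03 CPM in shAHR#2 cells and 6.28, 5.88 and 5.61 CPM in shAHR#3 cells. The groups did not overlap, with shAHR#2 highest. The rise was 7.92-fold (log2 2.99, SE 0.17, adjusted p = 8.06e-18) and 5.29-fold (log2 2.40, SE 0.18, adjusted p = 3.81e-14), and the constructs differed by -0.58 (SE 0.13, adjusted p = 0.000218). SULT1B1, a sulfotransferase of phenols and thyroid hormones, had 0, 1 and 0 counts in the control, 15, 9 and 6 in shAHR#2 cells and 11, 1 and 6 in shAHR#3 cells. Its level with shAHR#2 was 34.5 times that of the control (95% counting interval 5.73 to 1406) and with shAHR#3 17.4 times (2.75 to 725). It was called with both constructs (adjusted p = 4.31e-05 and 0.00345), in a test it entered through its knockdown reads, but not with shAHR#3 once shAHR#3 replicate 1 was left out (log2 2.91, adjusted p = 0.0530), and without pLKO-GFP replicate 2 the control held no count. The constructs did not pass against each other (adjusted p = 0.152), except without shAHR#3 replicate 1 (log2 difference -1.73, adjusted p = 0.0395).

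UGT8 was the only tested UGT gene, and it attaches galactose to ceramide, the first step to myelin lipids, rather than clearing foreign compounds. It was at 36.8, 35.9 and 39.5 CPM in the control, 40.7, 45.6 and 44.5 in shAHR#2 cells and 38.7, 38.9 and 39.2 in shAHR#3 cells. The shAHR#2 libraries were above the control (log2 0.22, SE 0.06, adjusted p = 0.00109) and the shAHR#3 libraries were within its range (0.06, SE 0.06, adjusted p = 0.405). The constructs differed by -0.16 (adjusted p = 0.0209), a call that was lost without shAHR#2 replicate 2 (adjusted p = 0.125), shAHR#2 replicate 3 (0.0810) or shAHR#3 replicate 1 (0.0556).

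Neighbouring genes were described for 3 of the clusters of members, a choice made after values were seen. Of all tested genes, 32.6% were higher and 33.2% lower with shAHR#2, and 26.9% higher and 27.5% lower with shAHR#3. These shares stand beside the counts against the control below. Within 500 kb of ALDH3A2 and ALDH3A1, 11 other genes were tested; 5 were higher and 2 lower with shAHR#2, and 5 were higher and 1 lower with shAHR#3. SLC47A1, an exporter of organic cations, rose (log2 1.66 and 1.34), and ULK2, an autophagy kinase next to ALDH3A1, fell (-2.99 and -1.80). Around the AKR1C genes 6 others were tested, 5 higher and 1 lower with each construct; their median was 1.50 with shAHR#2 and 0.58 with shAHR#3. In the direct comparison 2 of these neighbours were higher and 3 lower with shAHR#3 (21.9% and 20.4% of all genes), while AKR1C1, AKR1C2 and AKR1C3 were each higher. Around the GSTM genes 17 others were tested, with medians of 0.12 and 0.06. Of these, 6 were higher and 4 lower with shAHR#2, and 6 higher and 3 lower with shAHR#3.

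**Figure D4:**
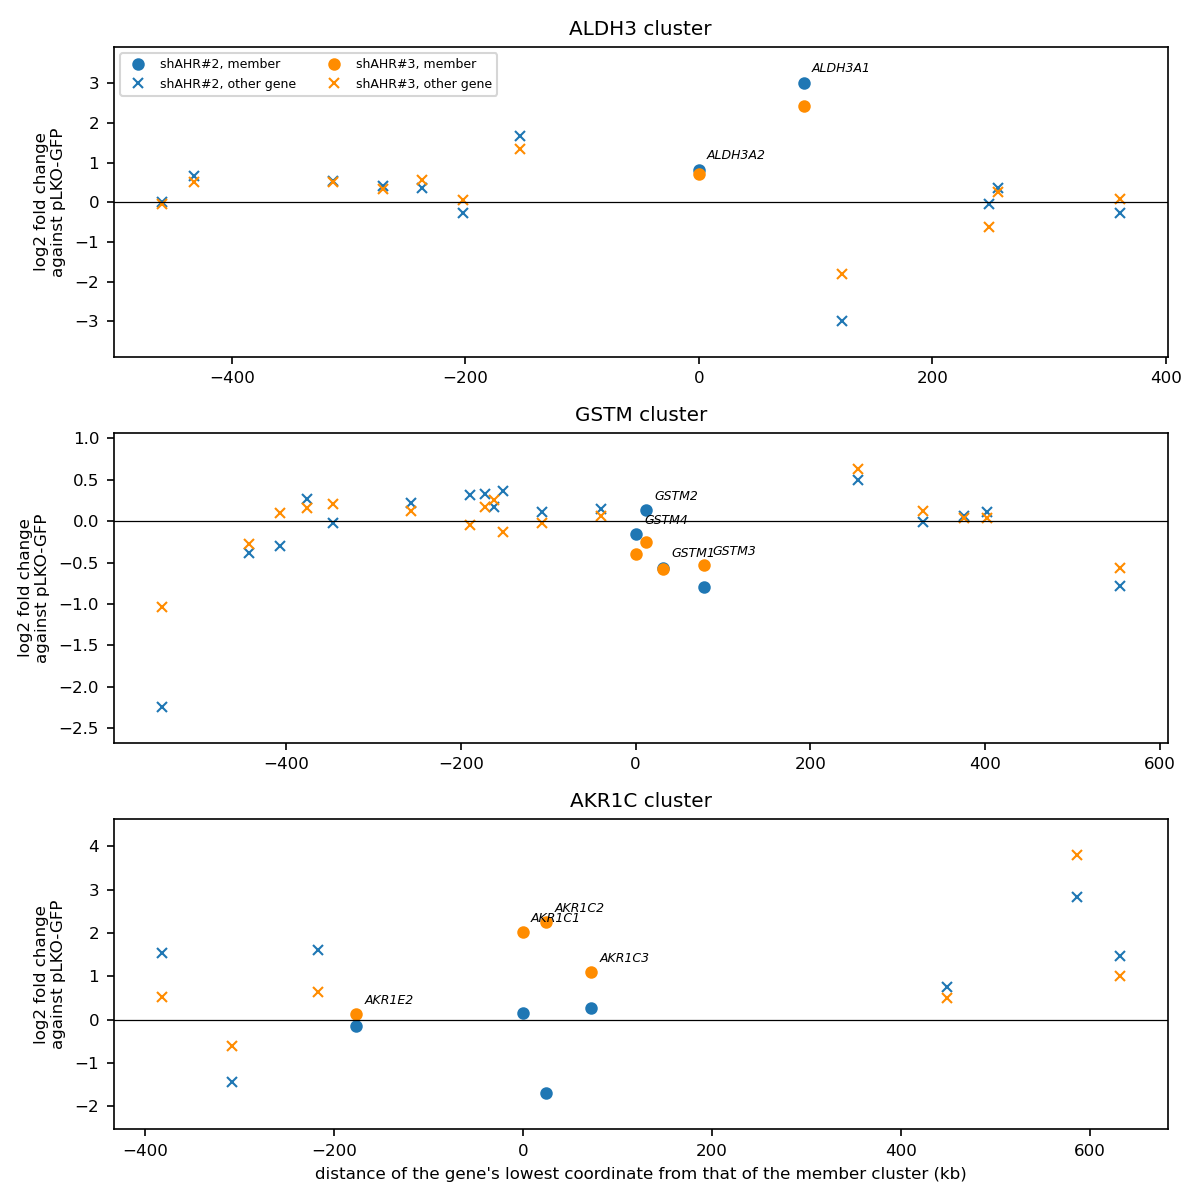
Log2 fold change against pLKO-GFP of members (named circles) and other tested genes (crosses) by distance in kb from the start of the member cluster, for shAHR#2 (blue) and shAHR#3 (orange). In the AKR1C cluster the shAHR#3 points of AKR1C1, AKR1C2 and AKR1C3 lie between 1.10 and 2.25, above their shAHR#2 points, while most neighbours have the higher point with shAHR#2.

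Genes that work beside these enzymes were read from 6 lists of 108 genes, of which 87 were tested. With shAHR#2, 61 were called (70.1% of 87, against 65.8% of all tested genes; 29 higher, 32 lower), with shAHR#3 54 (62.1% against 54.4%; 23 higher, 31 lower) and between the constructs 51 (58.6% against 42.3%; 20 higher, 31 lower). The counts of each list below stand beside 32.6% of all genes higher and 33.2% lower with shAHR#2, and 26.9% higher and 27.5% lower with shAHR#3. For AHR and NRF2 regulators and targets, 6 of 18 were higher and 9 lower with shAHR#2, and 5 higher and 6 lower with shAHR#3. AHR itself, the gene the constructs target, is counted in this list and in the counts over all lists. Its calls as lower were set by the design. CYP1A1, the classical AHR target, fell from 4.47 ± 0.424 CPM to 0.815 ± 0.346 and 1.91 ± 0.475 (log2 -2.47 and -1.23, adjusted p = 1.02e-10 and 4.39e-06), and CYP1B1 fell by 2.65 and 0.44 on the log2 scale. NQO1, a quinone reductase that AHR and NRF2 both induce, fell from 301 ± 4.45 CPM to 114 ± 2.10 and 184 ± 1.12 (log2 -1.40 and -0.71), while ALDH3A1 rose. NFE2L2 was at 155 ± 2.55, 147 ± 4.86 and 147 ± 2.79 CPM (log2 -0.08, adjusted p = 0.0437, and -0.07, adjusted p = 0.0668), and KEAP1, its inhibitor, fell with shAHR#2 (log2 -0.44) and had a change of -0.08 (adjusted p = 0.0853) with shAHR#3. TXNRD1, thioredoxin reductase, fell by 0.21 and 0.26.

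Of 22 genes of cofactor supply, for glutathione, NADPH, sulfate and sugar donors, 8 were higher and 10 lower with shAHR#2, and 6 higher and 11 lower with shAHR#3. SLC7A11, the cystine importer, rose by 0.30 with shAHR#2 and was at 0.01 (adjusted p = 0.830) with shAHR#3; its partner SLC3A2 fell by 0.20 and 0.14, and BPNT2, which clears a sulfation by-product, had changes of 0.12 and -0.09. Among 14 tested genes of retinoid handling, 6 were higher and 2 lower with shAHR#2, and 5 higher and 3 lower with shAHR#3. The retinal reductase RDH11 rose (log2 0.69 and 0.34), RXRA rose (0.45 and 0.48), and ADH5 fell (-0.44 and -0.43).

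Of 11 deconjugation genes, 1 was higher and 5 lower with shAHR#2, and 2 higher and 5 lower with shAHR#3. STS, steroid sulfatase, fell with shAHR#2 and rose with shAHR#3 (log2 -0.47 and 0.27); SUMF2 fell with both (-0.40 and -0.29), and GUSB, beta-glucuronidase, was called in neither (-0.07 and -0.09). Of 16 other carbonyl reductases and dehydrogenases, 5 were higher and 5 lower with shAHR#2, and 3 higher and 5 lower with shAHR#3, with HSD17B4 at 0.10 and 0.08, HSD17B11 at -0.33 and -0.04, and HSD17B12 at 0.25 and 0.07. Among 6 tested membrane or sigma-class glutathione transferases and relatives, 3 were higher and 1 lower with shAHR#2, and 2 higher and 1 lower with shAHR#3, which became 3 higher and 2 lower without shAHR#3 replicate 3. MGST1, the microsomal transferase, rose by 0.38 with shAHR#2 and was at 0.07 (adjusted p = 0.0905) with shAHR#3, CLIC4 rose (0.37 and 0.27), and CLIC1 had changes of 0.01 and -0.09.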

How the data were processed

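RNA of 9 MDA-MB-231 libraries (3 groups of 3) was sequenced by the authors. Per the labels, a stranded mRNA kit was used, and the submitters' processing notes name FastQC, STAR, Subread featureCounts and GRCh38.p13; versions, annotation release, strand setting and the handling of multiply mapped reads are not given in the sources used here. The deposited values are raw counts, whole numbers for every gene, and carry no normalization.

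Everything after the counts was computed with R 4.3.3, edgeR 4.0.16 and, as an alternative, DESeq2 1.42.0, the tool the study used. Genes were kept by filterByExpr (minimum count 10, total 15; 14274 of 60649), scaled by TMM and fitted once over 9 libraries with a mean per group. Each SE is the size of the log2 fold change divided by the root of F. Members and companion lists, named genes and tests were chosen with earlier results of these data known. Named members were ALDH3A1, ALDH1A3, the 3 highest of each family by mean CPM, those called at 2-fold or more with either construct, those called in opposite directions and those switching between at most 3 counts in a group and a mean of at least 10 in another. Others are said to be chosen after their values were seen. Simulated data with known changes were used to test both tools. Positions, exon overlaps and 75-base stretches came from GENCODE release 44, which held the identifiers of all 85 members and 60507 of 60649 genes; the authors' release may differ. Libraries of a group differed by more than counting noise (chi-square per degree of freedom at least 1.75). A marker result of the leukocyte list is not reported here.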

Additional observations from a re-analysis of the deposited data

Results flagged for a closer look

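AKR1C1 and AKR1C2 were the named members for which shAHR#3 and shAHR#2 differed by 2-fold or more in the direct test of the difference (log2 values): 1.86 for AKR1C1 (SE 0.14, edgeR adjusted p = 4.86e-14) and 3.94 for AKR1C2 (SE 0.44, adjusted p = 1.69e-09). In each case all 3 shAHR#3 libraries were above all 3 shAHR#2 libraries. The 2 genes share part of their sequence, so these are not independent results, and AKR1C2 passed the low-count filter only through the shAHR#3 libraries, where it is high. With 3 libraries a group, no test for a library far from its group was made.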

How the results depend on the processing

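The counts of called members and of called genes over all companion lists together stayed within 1.5 times the reported count under every alternative: DESeq2, DESeq2 size factors, only the groups compared, genes with a mean of 50 or more counts, no low-count filter, near-identical paralogs summed (members only) and an adjusted p under 0.01. Of single companion lists, retinoid handling between the constructs went from 4 to 2 calls at an adjusted p under 0.01, and the membrane or sigma-class transferases with shAHR#3 from 3 to 5 without shAHR#3 replicate 3. Leaving out each library in turn gave 24 to 26 members for shAHR#2, 20 to 22 for shAHR#3 and 14 to 19 between the constructs, and AHR log2 fold changes of -1.52 to -1.48, -1.38 to -1.26 and 0.13 to 0.24. With the replicate number as a block (replicate block), 25, 21 and 18 members were called, and no named member changed its call. Deviations of same-numbered libraries from their group means were nearly unrelated (correlations -0.062 to 0.0755). Such values cannot show whether same-numbered libraries were prepared together, since a weak shared effect can be lost in noise, and the labels do not say. Of 986 values of named members under the alternatives, 966 kept their direction and side of the threshold or stayed uncalled, 15 lost the call, 5 gained one and 0 reversed. At an adjusted p under 0.01 AKR1B10 with shAHR#3 (0.0156), AKR1C2 with shAHR#2 (0.0126) and UGT8 between the constructs (0.0209) were not called. Low counts limit AKR1C2, AKR1B10, SULT1B1 and ALDH1L1.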
